A study of Mus musculus with 26 samples.

Results

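The dystrophin glycoprotein complex joins the actin cytoskeleton of the muscle fibre to laminin in the surrounding matrix, and 8 genes of it were followed across both deposited FPKM tables, each taken as the row that carries its gene symbol. They were Dmd (dystrophin), Utrn (utrophin), Sgca, Sgcb and Sgcd (alpha-, beta- and delta-sarcoglycan), Sspn (sarcospan), Dag1 (dystroglycan) and Dtna (alpha-dystrobrevin). All 8 were found in each table, among 53465 genes listed for muscle and 55487 listed for cells. FPKM relates the fragments of a gene to the length of its exons and to a scaling factor of its library. Levels can therefore be compared between genes as well as between libraries of a table. Fold changes are on the log2(FPKM + 0.1) scale with their standard error (SE), which understates changes of low genes. A gene was called when limma, fitted over all genes and all groups of a table, gave a Benjamini-Hochberg adjusted p of at most 0.05.

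The muscle table holds tibialis anterior (TA) muscle of C57BL/6J mice on day 0 and 1, 3, 5 and 10 days after it was injected with cardiotoxin (CTX), a toxin from cobra venom that breaks down fibres, with 2 libraries per day. The methods describe 6-week-old males with saline as the control, and whether day 0 muscle was untouched or given saline is not settled by the labels. The cell table holds C2C12, a mouse myoblast line, as control cells (Ctrl) and as cells in which a dCas9-KRAB repressor was guided to the Mettl3 promoter (Cas9M3, here knockdown cells), the gene of an RNA methyltransferase. Both were sequenced while growing (GM, growth medium) and on day 3 after the change to differentiation medium (DM3), with 2 libraries per group. The knockdown cells were a puromycin-selected stable line, and the control construct is not described by the labels. Nothing in the labels says that the 2 libraries of a group came from separate animals or cultures, so each p measures only the spread between these libraries, and with 2 against 2 an exact two-sided permutation test cannot go below 0.333.

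Dystrophin is the long rod that binds actin at one end and dystroglycan at the other. Utrophin is its autosomal relative, which sits at the neuromuscular and myotendinous junctions of mature fibres and along the whole membrane of young and regenerating ones. The sarcoglycans and sarcospan form a membrane unit that is lost from the sarcolemma when dystrophin is missing, alpha-dystrobrevin binds dystrophin and the syntrophins, and loss of single members causes muscular dystrophies in humans and mice.

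In GRCm38, Dmd lies on chromosome X from 82948870 to 85206141 on the plus strand, with 23801 bp of exon sequence. Utrn lies on chromosome 10 from 12382188 to 12869365 on the minus strand, Sgca on chromosome 11 from 94962791 to 94976327 on the minus strand, and Sgcd on chromosome 11 from 46896253 to 47988969 on the minus strand. Sgcb lies on chromosome 5 from 73632749 to 73647790 on the minus strand, Dag1 on chromosome 9 from 108204634 to 108263958 on the minus strand, and Sspn on chromosome 6 from 145931641 to 145965223 on the plus strand. Each value covers all exons of a gene, so the full-length Dmd transcript of 3678 codons and the short ones of 604 and 617 codons, which begin at an internal start, cannot be told apart.

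The windows from 250 bases before to 50 bases after the start that RefSeq gives (GRCm38.p6) are shown for Dmd, Utrn and Sgca. Both Dmd starts are given, because the gene had reads in all muscle libraries and almost none in cells. Utrn moved against Dmd in muscle, and Sgca was the member called in both tables. Each is printed 5′ to 3′ on the strand of its gene, with the letters CANNTG (the E-box, which reads the same on both strands) in capitals.
Dmd, full-length start, chrX:82948620-82948919, plus strand: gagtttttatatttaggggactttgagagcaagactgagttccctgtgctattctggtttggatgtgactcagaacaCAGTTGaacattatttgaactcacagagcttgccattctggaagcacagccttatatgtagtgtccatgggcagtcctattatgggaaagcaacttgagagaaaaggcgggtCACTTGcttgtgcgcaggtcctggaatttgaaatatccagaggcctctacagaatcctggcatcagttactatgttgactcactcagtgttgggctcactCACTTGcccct
Dmd, internal start, chrX:85048045-85048344, plus strand: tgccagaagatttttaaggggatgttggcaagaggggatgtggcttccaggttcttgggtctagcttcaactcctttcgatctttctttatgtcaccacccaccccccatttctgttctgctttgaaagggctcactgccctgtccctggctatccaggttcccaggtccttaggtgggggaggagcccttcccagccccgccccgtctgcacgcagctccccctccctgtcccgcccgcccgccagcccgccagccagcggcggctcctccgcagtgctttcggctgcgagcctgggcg
Utrn, a start inside the annotated gene, chr10:12861686-12861985, minus strand: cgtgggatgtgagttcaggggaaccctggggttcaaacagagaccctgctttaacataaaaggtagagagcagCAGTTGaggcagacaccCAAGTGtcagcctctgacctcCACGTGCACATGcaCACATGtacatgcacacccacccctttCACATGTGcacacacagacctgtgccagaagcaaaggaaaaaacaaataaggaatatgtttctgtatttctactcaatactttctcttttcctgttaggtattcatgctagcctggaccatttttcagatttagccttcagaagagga
Sgca, chr11:94976278-94976577, minus strand: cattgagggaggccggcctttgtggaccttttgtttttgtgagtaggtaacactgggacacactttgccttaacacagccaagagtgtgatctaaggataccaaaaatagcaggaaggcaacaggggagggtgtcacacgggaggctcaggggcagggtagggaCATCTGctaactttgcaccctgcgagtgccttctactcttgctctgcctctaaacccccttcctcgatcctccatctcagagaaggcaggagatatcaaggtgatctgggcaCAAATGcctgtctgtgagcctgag
Counting overlapping matches, CANNTG occurred 3 times at the full-length Dmd start, 0 times at the internal Dmd start and 2 times at the Sgca start. In the Utrn window, which lies inside the annotated gene, CANNTG occurred 7 times. Which Utrn start is used in these samples is not known. Of the 32851 RefSeq windows of this length, 72.3% hold CANNTG. The narrower CAGCTG, held by 16.3% of windows, was in none of the 4 windows shown. GGGCGG, searched on both strands and held by 35.7% of windows, occurred 3 times at the internal Dmd start and in none of the other 3. These matches describe letters in a window only.

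Before the results, the libraries were checked against their labels. Reads on genes, inferred from the steps between low values, numbered 14170000 to 18820000 per muscle library and 14230000 to 29570000 per cell library. The scaling of FPKM did not follow these numbers. In muscle, 1 read on 1 kb was 0.0507 FPKM with 14330000 reads (day 3 replicate 1) and 0.0803 with 16780000 (day 0 replicate 1). Mettl3 was 4.68 to 5.65 FPKM in the 4 control cell libraries and 0.0805 to 0.331 in the 4 knockdown libraries. Xist, the RNA made from the inactive X, was 5.77 to 10.0 FPKM in both day 0 libraries, both day 10 libraries and day 3 replicate 2, and at most 0.152 in the other 5, where Y-linked Ddx3y was 6.10 to 11.4. The 5 Xist-expressing libraries had Ddx3y of at most 0.101 FPKM, which goes against the stated sex. Only day 3 has a library of each kind, and X-linked Dmd is therefore also given within each kind. In the cell table, ribosomal RNA-type loci took 0.54% to 0.73% of reads in replicate 1 of each group. In replicate 2 they took 8.43% to 29.56%, most in Ctrl-GM. In every cell group, genes with over 6 kb of exon were lower in replicate 2 than in replicate 1, and genes under 2 kb were higher. The median log2 differences were -0.46 and 0.77 in Ctrl-GM, -0.198 and 0.252 in Ctrl-DM3, -0.137 and 0.259 in Cas9M3-GM, and -0.111 and 0.191 in Cas9M3-DM3. Dmd, Utrn, Sgcd, Dag1 and Dtna have over 6 kb of exon, and Sgca, with 1735 bp, has under 2 kb. The part of this shift in the cell values of these members was not tested. The changes of Utrn, Sgca, Sgcb and Drp2 from GM to DM3 in control cells are also given without Ctrl-GM replicate 2.

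In TA muscle, mRNA for 4 members (Dmd, Sgca, Dtna and Sgcb) was lower on day 3 post-injury than on day 0, that for Utrn was higher, and Sgcd, Sspn and Dag1 did not pass the test. On day 10 the 8 members had means within 0.27 of day 0 on the log2 scale. None was called, where 0.00597% of all genes tested were called. Thus 5 of 8 members were called for day 3 against day 0, where 48.8% of the 16753 genes tested were called, 24.5% as higher and 24.3% as lower. The median change of the 8 members was -0.57, against 0.01 for all genes tested.

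**Figure D1:**
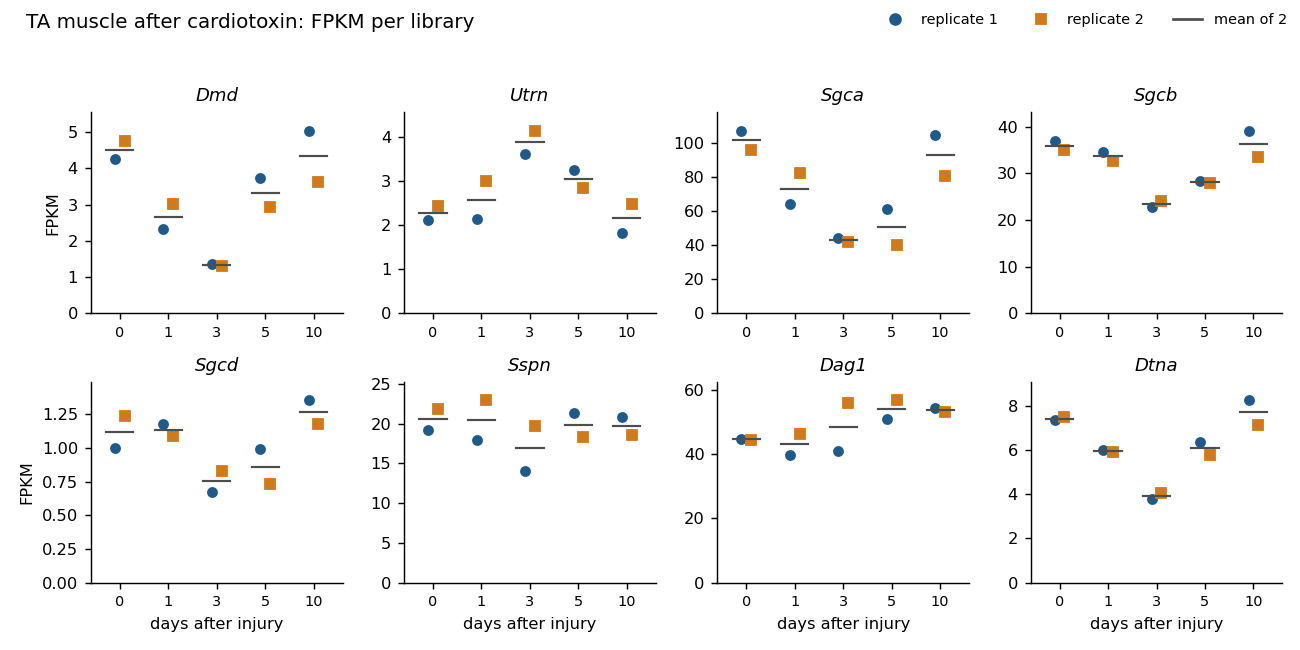
FPKM of the 8 genes in each of the 10 TA muscle libraries, by days after CTX injury (evenly spaced, not to scale), each panel with its own axis from 0. Circles are replicate 1, squares replicate 2 and bars the mean of 2 libraries: Dmd, Sgcb and Dtna are lowest on day 3, where Utrn is highest, and Dag1 and Sspn have no day that stands apart.

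Dmd, which encodes dystrophin, was 4.25 and 4.76 FPKM on day 0, 2.31 and 3.0 on day 1, 1.37 and 1.30 on day 3, 3.74 and 2.93 on day 5, then 5.04 and 3.61 on day 10. Both day 3 libraries lay below every other muscle library, and the day 10 values spanned those of day 0. The mean went from 4.5 ± 0.359 FPKM (SD, n = 2) on day 0 to 1.34 ± 0.044 (n = 2) on day 3, a log2 change of -1.68 (SE 0.22, limma adjusted p = 0.00089). Dmd was the member with the largest change on day 3. Its day 1 level lay between these, with a log2 change of -0.75 from day 0 that missed the threshold (SE 0.22, limma adjusted p = 0.0822).

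Dmd was higher again by day 5. From day 3 to day 5 it rose by 1.25 on the log2 scale (SE 0.22, limma adjusted p = 0.0143), one of 2 members called in that step, where 12.7% of all genes tested were called. This call was lost when any 1 of the 4 libraries of days 3 and 5 was left out, with adjusted p of 0.0621 to 0.0993 and a change of 1.08 to 1.42. A term for Xist-expressing libraries also removed the call (1.22, limma adjusted p = 0.1). From day 3 to day 10 the rise was 1.61 (SE 0.22, limma adjusted p = 0.00164), and day 10 differed from day 0 by -0.07 (SE 0.22, limma adjusted p = 0.931). Among the libraries that express Xist, Dmd was 4.25 and 4.76 FPKM on day 0, 1.30 on day 3, and 5.04 and 3.61 on day 10. Among those that do not, it was 2.31 and 3.0 on day 1, 1.37 on day 3, and 3.74 and 2.93 on day 5, so day 3 was lowest within each kind.

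Utrn, the utrophin gene, took the opposite course. It was 2.11 and 2.43 FPKM on day 0, 2.13 and 3.0 on day 1, 3.61 and 4.15 on day 3, 3.24 and 2.85 on day 5, then 1.83 and 2.49 on day 10. Both day 3 libraries were above every other muscle library, and day 0 and day 10 overlapped. The mean was 2.27 ± 0.222 FPKM (SD, n = 2) on day 0 and 3.88 ± 0.379 (n = 2) on day 3, a log2 change of 0.75 (SE 0.22, limma adjusted p = 0.025). From day 3 to day 10 it fell by 0.83 on the log2 scale (SE 0.22, limma adjusted p = 0.0217). Day 3 was also the highest day within the Xist-expressing libraries (4.15 FPKM against 1.83 to 2.49) and within the others (3.61 against 2.13 to 3.24).

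The Utrn calls were less firm than those of Dmd. The rise from day 0 to day 3 missed the threshold when any 1 of the 4 libraries of these days was left out (adjusted p 0.0506 to 0.127) and when a term for Xist-expressing libraries was fitted (0.85, adjusted p = 0.062). The fall from day 3 to day 10 missed it without either day 3 library or without day 10 replicate 1 (adjusted p 0.0597 to 0.127) and with that term (adjusted p = 0.0617). The F test for any change over the 5 days did not call it (limma adjusted p = 0.0675).

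The ratio of Dmd to Utrn within a library does not depend on how the library was scaled. It was 2.01 and 1.96 on day 0, 1.08 and 1.00 on day 1, 0.379 and 0.315 on day 3, 1.15 and 1.03 on day 5, then 2.76 and 1.45 on day 10. Day 3 was the only day with a higher FPKM of Utrn than of Dmd in both libraries. FPKM relates to all annotated exons of a gene, so equal FPKM need not mean equal numbers of transcripts. The 2 libraries of day 10 lay on either side of those of day 0, and days 1 and 5 lay close to equal FPKM. All libraries of days 0 and 10 express Xist and none of days 1 and 5 does. The difference in ratio between these pairs of days therefore cannot be told apart from that split. Day 3 had the lowest ratio within each kind, 0.315 among the libraries that express Xist and 0.379 among the others. No test was made on the ratio.

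**Figure D2:**
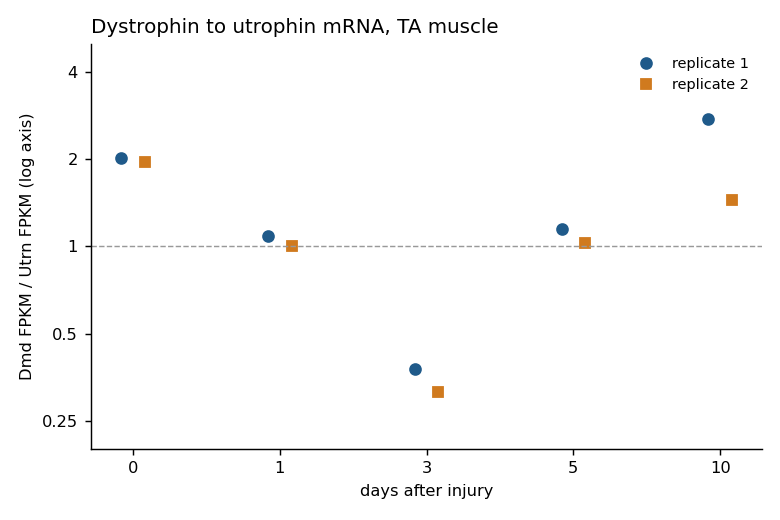
Ratio of Dmd FPKM to Utrn FPKM in each TA muscle library by days after injury (evenly spaced, not to scale), on a log axis, with circles for replicate 1, squares for replicate 2 and a dashed line at equal FPKM. The 2 day 3 libraries, at 0.379 and 0.315, are the only ones below the line.

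Among the sarcoglycans, Sgca was the most abundant member on day 0. This gene encodes alpha-sarcoglycan, whose expression is restricted to striated muscle. It was 108 and 96.1 FPKM on day 0, 64.3 and 82.5 on day 1, 44.3 and 42.2 on day 3, 61.4 and 40.0 on day 5, then 105 and 80.7 on day 10. The libraries of days 3 and 5 were all below those of days 0, 1 and 10. Sgca fell by 1.23 on the log2 scale from day 0 to day 3 (SE 0.23, limma adjusted p = 0.00412). It was still lower than day 0 on day 5, by a log2 change of -1.03 (SE 0.23, limma adjusted p = 0.0215), and was the one member called there, against 25.5% of all genes tested. All day 0 libraries express Xist and no day 5 library does. With a term for Xist-expressing libraries the change was -1.1 and was not called (limma adjusted p = 0.25). Under quantile normalization it was -0.69 and was not called (limma adjusted p = 0.0655). The day 5 call was lost without day 0 replicate 1 (adjusted p = 0.13) or day 5 replicate 2 (adjusted p = 0.127), and a larger change of Sgca than of other members at day 5 was not tested.

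Sgcb, which encodes beta-sarcoglycan, changed less. Its level was 36.9 and 35.0 FPKM on day 0, 34.6 and 32.7 on day 1, 22.8 and 24.1 on day 3, 28.4 and 28.0 on day 5, then 39.2 and 33.5 on day 10. Both day 3 values were the lowest and both day 5 values the next lowest. The log2 change from day 0 to day 3 was -0.62 (SE 0.12, limma adjusted p = 0.0047), and from day 3 to day 10 it was 0.63 (SE 0.12, limma adjusted p = 0.00618). Under quantile normalization the fall shrank to -0.27 and was no longer called (adjusted p = 0.06).

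Sgcd, which encodes delta-sarcoglycan, was the least abundant member in muscle on every day. It was 1.00 and 1.23 FPKM on day 0, 1.18 and 1.09 on day 1, 0.675 and 0.826 on day 3, 0.989 and 0.731 on day 5, then 1.35 and 1.18 on day 10. The day 3 change of -0.52 was not called (SE 0.23, limma adjusted p = 0.0939), though under quantile normalization it was (-0.90, adjusted p = 0.015). The difference of 0.69 from day 3 to day 10 was called (SE 0.23, limma adjusted p = 0.046) and was lost when any 1 of the 10 libraries was left out (adjusted p 0.053 to 0.203).

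Sspn, which encodes sarcospan, a protein that spans the membrane with the sarcoglycans, was 14.1 to 23.0 FPKM over the 10 libraries. No comparison called it, and its largest change from day 0 was -0.30 on day 3 (SE 0.20, limma adjusted p = 0.259), where the libraries at 14.1 and 19.7 FPKM overlapped day 0 at 19.2 and 21.9.

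Dag1 gives rise to both dystroglycan subunits, the laminin receptor and its membrane partner that binds dystrophin. It was 44.8 and 44.5 FPKM on day 0, 39.9 and 46.3 on day 1, 41.0 and 56.0 on day 3, 51.0 and 56.9 on day 5, then 54.4 and 53.2 on day 10. The day 3 libraries stood on either side of day 0, and the log2 change was 0.10 (SE 0.17, limma adjusted p = 0.644). Quantile normalization, which lowered the median of all genes for day 3 against day 0 by 0.12, gave 0.51 (adjusted p = 0.047), or 0.62 above that median. The means of days 5 and 10 were higher than day 0 by 0.27 each (SE 0.17, limma adjusted p = 0.266 and 0.602), although every library of these 2 days lay above both of day 0. Because Sgca fell, Dag1 held the highest mean of the 8 genes on days 3 and 5, while Sgca held it on days 0, 1 and 10.

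Dtna, which encodes alpha-dystrobrevin on the cytoplasmic side of the complex, followed Dmd closely. It was 7.36 and 7.47 FPKM on day 0, 5.98 and 5.92 on day 1, 3.78 and 4.06 on day 3, 6.36 and 5.77 on day 5, then 8.26 and 7.12 on day 10. Day 3 lay below all other days and day 1 below days 0 and 10. Dtna fell by 0.90 on the log2 scale by day 3 (SE 0.13, limma adjusted p = 0.00131), rose by 0.62 from day 3 to day 5 (SE 0.13, limma adjusted p = 0.0241) and was 0.95 higher on day 10 than on day 3 (SE 0.13, limma adjusted p = 0.00165). The rise to day 5 was lost when any 1 of the 4 libraries of these days was left out (adjusted p 0.0987 to 0.147). With a term for Xist-expressing libraries that rise was 0.67 and was not called (limma adjusted p = 0.111). Over the 10 libraries the Pearson correlation of the log2 values of Dtna with those of Dmd was 0.972, as a description of libraries that share days.

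**Figure D3:**
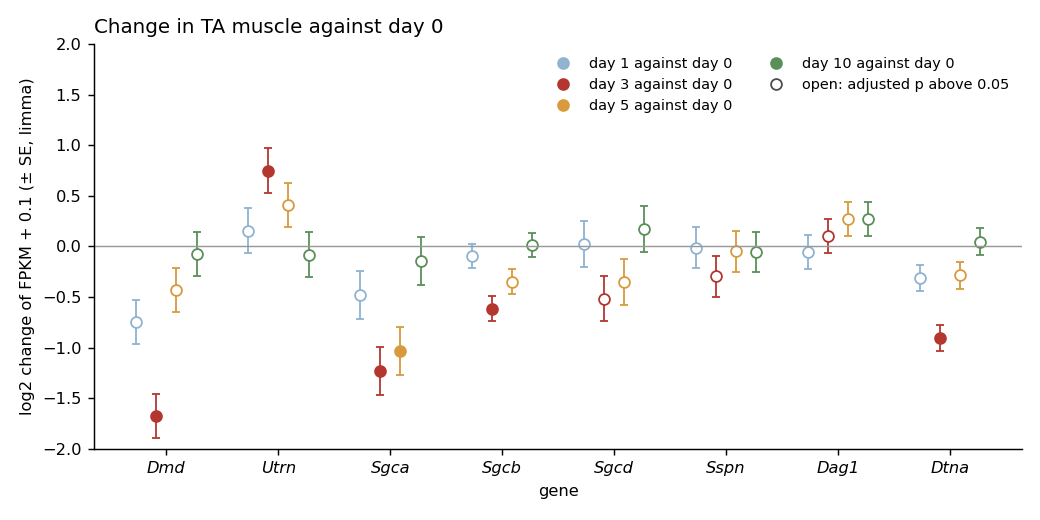
Change of each gene against day 0 in TA muscle on days 1, 3, 5 and 10, as the limma log2 change of FPKM + 0.1 with its SE. Filled points have an adjusted p of at most 0.05: on day 3 these are Dmd, Utrn, Sgca, Sgcb and Dtna, on day 5 Sgca, and on days 1 and 10 none.

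Counting over the time course, 0 of 8 members were called on day 1 against day 0, where 6% of all genes were called, and 2 of them (Dmd and Dtna) had an unadjusted p under 0.05, as did 26.8% of all genes. Between days 1 and 3, Dmd, Sgcb, Sgca and Dtna were called as lower, where 31.1% of genes were called and 16.6% were lower. Their log2 changes were -0.93, -0.52, -0.75 and -0.59 (limma adjusted p = 0.0171, 0.0164, 0.0449 and 0.014), and all 4 calls were lost when either day 3 library was left out and when a term for Xist-expressing libraries was fitted. The call of Sgca was also lost without any 1 library of days 0 and 1, that of Dmd without day 1 replicate 2 and that of Sgcb without day 1 replicate 1. Between days 3 and 10, 6 of 8 were called, with Dmd, Sgca, Sgcb, Sgcd and Dtna higher and Utrn lower, where 37.9% of genes were called, 19.1% as higher and 18.8% as lower. That count was 3 without day 3 replicate 2 and 3 without day 10 replicate 1. On day 10 against day 0, 0 of 8 were called and 0 had an unadjusted p under 0.05, where 0.00597% of genes were called and 10.1% had such a p. The F test over the 5 days called Dmd, Dtna, Sgca and Sgcb (limma adjusted p = 0.00461, 0.00591, 0.0139 and 0.0159), against 43% of genes, and it called 2 of them without either day 3 library.

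Markers of fibres and of other cell types moved over the same days. The summed FPKM of 7 mature fibre genes was 55660 to 62230 on day 0, 15050 to 18840 on day 3 and 58870 to 77490 on day 10, and that of 6 genes of newly formed fibres was 19.3 to 44.2, 988 to 1515 and 50 to 109 on these days. The 6 macrophage genes summed to 20.0 to 38.7 FPKM on day 0 and 606 to 640 on day 3, and the 4 fibroblast genes to 37.8 to 91.4 and 398 to 433. The 4 smooth muscle and pericyte genes summed to 89.8 to 95.8 FPKM on day 0 and 347 to 424 on day 3, and the 4 endothelial genes to 56.7 to 78.2 and 32.2 to 41.5. The 3 myoblast genes went from 12.6 to 21.1 FPKM to 71.0 to 83.3, and the 4 neutrophil genes from 1.58 to 5.19 to 7.17 to 8.15. Ckm, the muscle creatine kinase, fell from 6054 and 7577 FPKM to 1013 and 1621. In whole muscle, fewer fibres and less of an mRNA per fibre cannot be told apart, and the part of these cell types in the changes of the 8 members was not tested.

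Of 8 other genes of the complex reported here, 4 passed the filter in muscle and 3 were called on day 3 against day 0, all as higher, where 24.5% of all genes tested were called as higher. The median change of the 4 was 1.59 against 0.01 for all genes tested.

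Sntb1, which encodes beta1-syntrophin, an adaptor protein that binds dystrophin and dystrobrevin, was 0.799 and 0.844 FPKM on day 0 and 8.73 and 11.2 on day 3, a log2 change of 3.44 (SE 0.33, limma adjusted p = 0.000376), and Sntb2, for beta2-syntrophin, was 0.729 and 1.18, then 1.95 and 2.07, a change of 1.03 (SE 0.32, limma adjusted p = 0.0292). Drp2, a smaller relative of dystrophin best known from Schwann cells, was 1.00 and 1.09 FPKM on day 0 and 4.14 and 5.99 on day 3, a change of 2.15 (SE 0.29, limma adjusted p = 0.001). The summed level of 4 Schwann cell genes was 11.5 to 18.0 FPKM on day 0 and 3.3 to 12.8 on day 3. Sgce, for epsilon-sarcoglycan, found in many tissues, was 0.431 and 0.508 on day 0 and 0.907 and 1.11 on day 3 (0.96, SE 0.47, limma adjusted p = 0.125). The remaining Sgcz, Sntg1, Sntg2 and Dtnb were at most 0.312 FPKM in muscle and were not tested. On day 10 against day 0 none of the 4 was called or had an unadjusted p under 0.05. Of all genes tested, 0.00597% were called there and 10.1% had such a p.

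**Figure D4:**
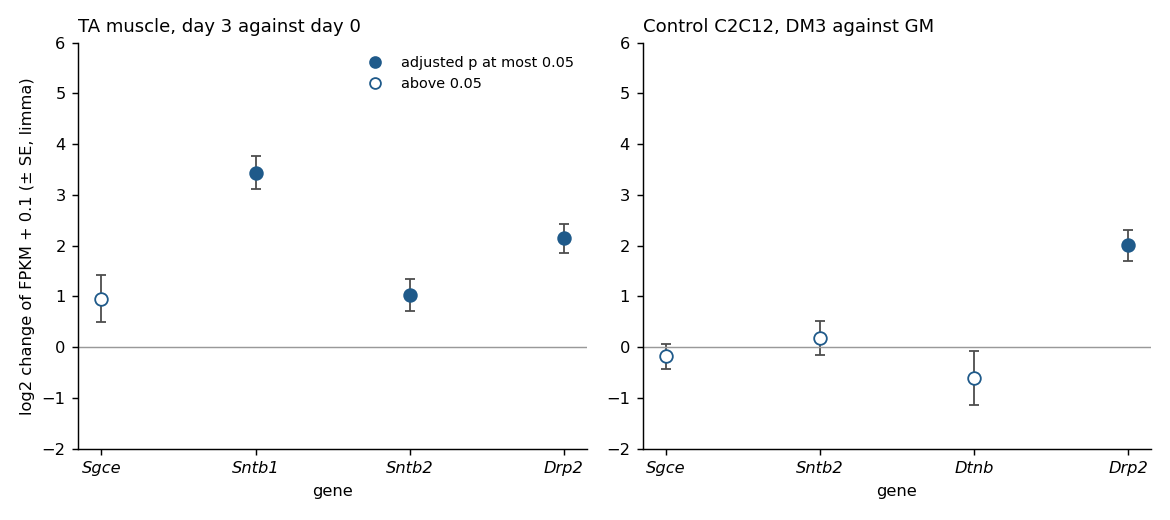
Limma log2 change of FPKM + 0.1 with its SE for the other genes of the complex reported here that passed the filter, in TA muscle on day 3 against day 0 (left) and in control C2C12 cells on DM3 against GM (right). Filled points have an adjusted p of at most 0.05: in muscle these are Sntb1, Sntb2 and Drp2 and in cells Drp2, all higher.

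Of 8 ligands and partners of the complex, 2 were called on day 3 against day 0, a smaller share than the 48.8% of all genes tested. Nos1, the neuronal nitric oxide synthase that the complex holds at the membrane, was 16.0 and 14.0 FPKM before injury and 2.02 and 1.60 on day 3, a log2 change of -2.99 (SE 0.34, limma adjusted p = 0.000578). Its day 10 libraries were at 14.5 and 9.41. Bgn, the matrix proteoglycan biglycan that binds dystroglycan and sarcoglycans, rose from 6.01 and 14.4 FPKM to 80.6 and 116 (3.36, SE 0.58, limma adjusted p = 0.0028).

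Of 17 genes reported here that build the sugar chains of dystroglycan, 15 were tested in muscle, and on day 3 against day 0 7 were called as lower and 1 as higher, where 24.3% of all genes tested were called as lower and 24.5% as higher. Their median change was -0.33 against 0.01 for all genes tested. B3galnt2, Pomgnt2 and Rxylt1, all enzymes of the laminin-binding chain, and Dolk, the dolichol kinase, had the largest changes among those called, at -1.38, -1.05, -0.79 and -0.72 (limma adjusted p = 0.00506, 0.0187, 0.00469 and 0.00491). B3galnt2 was 20.2 and 13 FPKM on day 0 and 6.91 and 5.51 on day 3, without overlap. None of the 15 was called on day 10 against day 0, where 0.00597% of all genes tested were called. Dag1 was thus not called while 7 genes for its glycosylation were lower, and a difference between them was not tested.

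A search over 5865 genes with a mean of at least 5 FPKM gave the patterns most like Dmd over the 10 muscle libraries. These were Vwa8, Trak1 and Ppp2r3a, with Pearson correlations of log2 values of 0.990, 0.989 and 0.989. Those most like Utrn were 0610039K10Rik, an antisense RNA, Fuca1 and Kctd10, with 0.974, 0.962 and 0.960. Between Dmd and Utrn themselves it was -0.753. These libraries share days and cell makeup, and the values are descriptions.

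C2C12 cells held almost no dystrophin mRNA. Dmd was 0.00132 and 0 FPKM in Ctrl-GM, 0.00153 and 0 in Ctrl-DM3, 0 and 0 in Cas9M3-GM, and 0.00603 and 0.00286 in Cas9M3-DM3. These values correspond to 7 reads over all 8 libraries, with 0 reads in 4 of them and at most 4 in any, and a count of 0 allows up to 3 reads, or 0.00399 to 0.0131 FPKM in those libraries. Each muscle library had 628 to 1512 reads on Dmd, 11199 in all. The value counts every annotated exon, so it covers the short transcripts from the internal start too. Dmd failed the filter in cells and was not tested there, which leaves 7 of 8 members and 13824 genes in the tests below.

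Other genes of the X chromosome near Dmd were measured in the same cells. Tab3 was 2.00 to 3.10 FPKM over the 8 libraries, Gk 1.30 to 2.87 and Tmem47 4.74 to 12.2. These 3 neighbours were chosen after their values were seen. Each of the 3 lay above Dmd in every cell library, and a difference between Dmd and these neighbours was not tested.

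**Figure D5:**
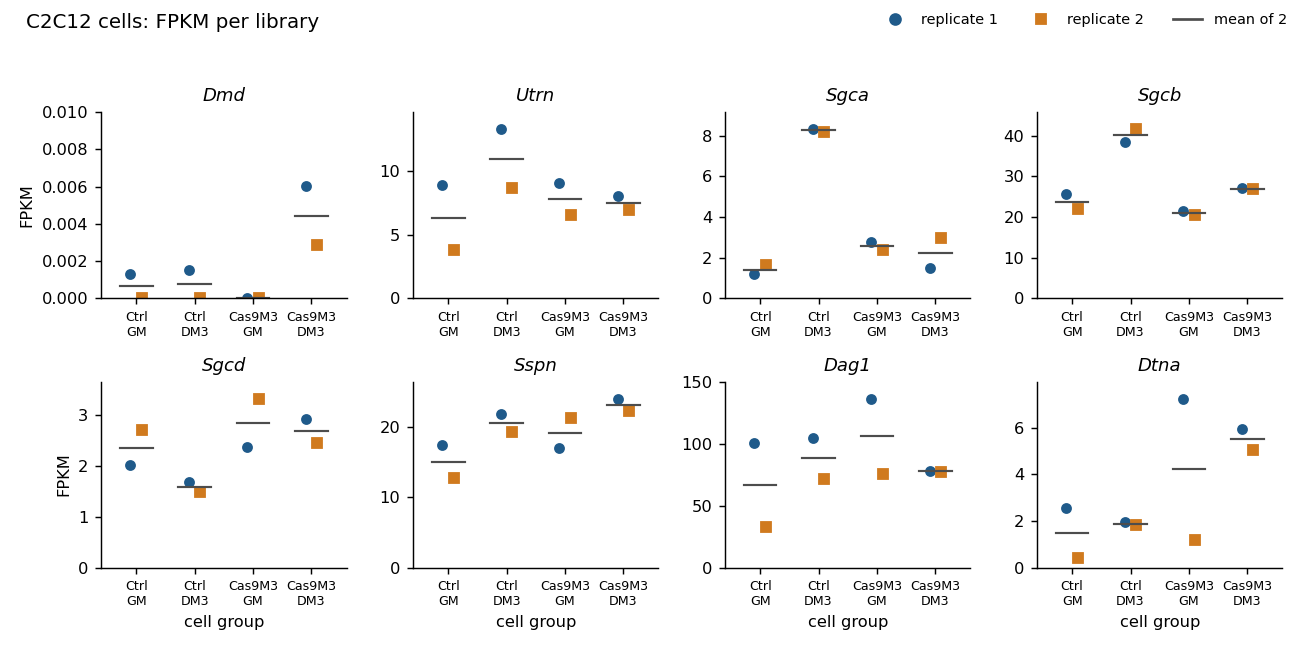
FPKM of the 8 genes in each of the 8 C2C12 libraries, by cell group (Ctrl, control; Cas9M3, Mettl3 knockdown; GM, growth medium; DM3, day 3 in differentiation medium), each panel with its own axis from 0. Circles are replicate 1, squares replicate 2 and bars the mean of 2 libraries: Sgca stands apart in Ctrl-DM3 at 8.32 and 8.21 FPKM, and Dmd stays at or below 0.00603.

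Utrn was present where Dmd was not. It was 8.90 and 3.78 FPKM in Ctrl-GM, 13.3 and 8.65 in Ctrl-DM3, 9.06 and 6.55 in Cas9M3-GM, and 8.0 and 6.96 in Cas9M3-DM3. Replicate 1 was above replicate 2 in all 4 groups, and the only groups that did not overlap were the 2 on DM3, control and knockdown. The log2 change from GM to DM3 in control cells was 0.87 (SE 0.43, limma adjusted p = 0.332). It was 1.48 without Ctrl-GM replicate 1 (adjusted p = 0.0322, called) and 0.27 without Ctrl-GM replicate 2 (adjusted p = 0.733), so the value rests on which library of that group is kept. In none of the 8 libraries did the ratio of Dmd to Utrn exceed 0.000754.

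With differentiation of control cells, Sgca was the one member called, 1 of 7 tested, where 1.14% of genes were called. It was 1.18 and 1.61 FPKM in Ctrl-GM and 8.32 and 8.21 in Ctrl-DM3, with no overlap and a wide gap. The log2 change was 2.50 (SE 0.35, limma adjusted p = 0.0394). Sgcb was 25.6 and 21.9 FPKM in Ctrl-GM and 38.5 and 41.6 in Ctrl-DM3, also without overlap, and its change of 0.75 missed the threshold (SE 0.16, limma adjusted p = 0.0923). Without Ctrl-GM replicate 2 it was 0.64 (adjusted p = 0.126), and without replicate 1 it was 0.86 and called (adjusted p = 0.0242). The size of the Sgca change kept to 2.29 to 2.71 when each library was left out, but the call was kept in 1 of these 8 fits, that without Ctrl-GM replicate 1 (adjusted p = 0.0242), and without Ctrl-GM replicate 2 the adjusted p was 0.0532.

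Of the 4 other complex genes tested in cells, 1 was called for DM3 against GM in control cells: Drp2, at 0.761 and 0.605 FPKM in Ctrl-GM and 3.47 and 2.68 in Ctrl-DM3 (2.01, SE 0.31, limma adjusted p = 0.0452). Its change was 1.87 without Ctrl-GM replicate 2 (adjusted p = 0.0839), and of the 8 fits that each left out a library the call held in 1, that without Ctrl-GM replicate 1 (adjusted p = 0.0227). Sntb1, which was 8.73 and 11.2 FPKM in day 3 muscle, was at most 0.322 in any cell library and was not tested. No ligand, partner or glycosylation gene was called in this comparison. An unadjusted p under 0.05 was found for 1 of 7 and 2 of 15 tested, against 18.2% of all genes.

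In knockdown cells no member was called between GM and DM3. Sgca was 2.76 and 2.35 FPKM in Cas9M3-GM and 1.49 and 2.94 in Cas9M3-DM3, overlapping, with a log2 change of -0.27 (SE 0.35, limma adjusted p = 0.862). Sgcb was 21.4 and 20.4, then 27.0 and 26.8 FPKM (0.36, SE 0.16, limma adjusted p = 0.425). These did not overlap. The change of Dtna was larger, 0.85, with a wide error (SE 0.98, limma adjusted p = 0.843) and a range of -0.40 to 2.10 as each library was left out. Of 7 members, 0 were called and 0 had an unadjusted p under 0.05, where 0.0289% of genes were called and 12.6% had such a p.

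On DM3, Sgca was 8.32 and 8.21 FPKM in control cells and 1.49 and 2.94 in knockdown cells. The groups did not overlap, and the log2 difference of knockdown against control was -1.93 (SE 0.35), just outside the threshold (limma adjusted p = 0.0541). With the replicate number as a block it was called (limma adjusted p = 0.038). Sgca itself did not deviate by replicate number. It was higher in replicate 2 of Ctrl-GM and Cas9M3-DM3 and lower in replicate 2 of Ctrl-DM3 and Cas9M3-GM. As each library was left out, the difference ranged from -2.40 to -1.46, and whether it was called depended on the library. Without the block, 0 of 7 members were called and 3 had an unadjusted p under 0.05, where 1.98% of genes were called and 17.6% had such a p. The other 2 of those 3 were Sgcb, at 38.5 and 41.6 FPKM in control and 27.0 and 26.8 in knockdown cells (-0.57, SE 0.16, limma adjusted p = 0.131), and Sgcd, at 1.68 and 1.49 against 2.92 and 2.46 (0.72, SE 0.27, limma adjusted p = 0.238). In a fit of only these 4 libraries, Sgca, Sgcb, Sgcd and Dtna were called, where 21.6% of the 13079 genes it tested were called.

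In GM, 0 of 7 members and 0 of 13824 genes (0%) were called between knockdown and control, with 1 member, Sgca, and 1244 genes at an unadjusted p under 0.05. Whether the knockdown differed in effect between DM3 and GM was tested in the same fit. For Sgca that difference was -2.77 on the log2 scale (SE 0.49, unadjusted p = 0.00109, limma adjusted p = 0.266), with 0 genes called (0%) and 1198 at an unadjusted p under 0.05. The Sgca difference ranged from -3.24 to -2.30 as each library was left out, without a call.

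Muscle genes outside the complex were, like Sgca, highest in both Ctrl-DM3 libraries. Myog, a late myogenic regulator, was 11.1 and 2.70 FPKM in Ctrl-GM, 89.1 and 83.3 in Ctrl-DM3, 12.7 and 0.182 in Cas9M3-GM, and 3.50 and 2.28 in Cas9M3-DM3. The summed level of the 7 mature fibre genes was 22.7 to 151 FPKM in Ctrl-GM, 644 in both Ctrl-DM3 libraries, 5.9 to 102 in Cas9M3-GM, and 14.7 to 19.7 in Cas9M3-DM3. Both GM groups had more of these genes in replicate 1. In Cas9M3-GM, Sgca was also higher in replicate 1, at 2.76 against 2.35 FPKM. In Ctrl-GM it was higher in replicate 2, at 1.61 against 1.18. Genes under 2 kb of exon, as Sgca is, were higher in that Ctrl-GM library by a median log2 difference of 0.77. In GM Sgca was higher in both knockdown libraries than in both control libraries, where the ranges of the fibre genes overlapped. The part of the fibre genes and of this length shift in the Sgca values was not tested.

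The remaining members had a wide spread within groups or little difference between them. Dag1 was the most abundant member in every cell group, at 101 and 32.7 FPKM in Ctrl-GM, 105 and 71.9 in Ctrl-DM3, 137 and 75.8 in Cas9M3-GM, and 78.7 and 77.5 in Cas9M3-DM3. The gap between the 2 libraries of a GM group was larger than any gap between group means. Dtna was 2.55 and 0.422 FPKM in Ctrl-GM, 1.94 and 1.83 in Ctrl-DM3, 7.26 and 1.21 in Cas9M3-GM, and 5.95 and 5.07 in Cas9M3-DM3. On DM3 its libraries did not overlap between knockdown and control, with a log2 difference of 1.49 that was not called (SE 0.98, limma adjusted p = 0.537). Sspn was 12.7 to 24.0 FPKM and Sgcd 1.49 to 3.32 over the 8 libraries, and neither was called in any comparison of the fit over all 8.

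Levels ordered the members differently in the 2 systems. On day 0 the order by mean FPKM was Sgca, Dag1, Sgcb, Sspn, Dtna, Dmd, Utrn and Sgcd, and no pair of neighbours overlapped between libraries. On day 3 it was Dag1, Sgca, Sgcb, Sspn, Dtna, Utrn, Dmd and Sgcd, with Dag1 and Sgca overlapping and Utrn and Dtna close, at 3.61 and 4.15 against 3.78 and 4.06 FPKM, which also overlapped. In all 4 cell groups Dag1, Sgcb, Sspn and Utrn came first in that order and Dmd last. In Ctrl-GM, Sgcd, Dtna and Sgca followed Utrn, and in Ctrl-DM3 Sgca, Dtna and Sgcd did, so that Sgca passed both with differentiation, although Dtna overlapped Sgca and Sgcd in GM. Since the tables were scaled separately, only the order within a library set is compared here, not the size of a level between muscle and cells.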

How the data were processed

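Messenger RNA of TA muscle (10 libraries) and C2C12 cells (8 libraries) was measured by RNA-seq, and 8 overexpression libraries of the series of 26 were not analysed here. The authors used HISAT2 to align reads to GRCm38 (Ensembl) and featureCounts to count them, and deposited FPKM that the fpkm function of DESeq2 gave. Versions and strand setting are not given in the sources used here. Each table was scaled separately, so groups were tested only within a table.

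A gene was tested if 2 or more libraries of its table reached 0.5 FPKM (16753 in muscle, 13824 in cells). Log2(FPKM + 0.1) was fitted with limma 3.58.1 (lmFit, eBayes with trend) in R 4.3.3, with 1 fit for each table and Benjamini-Hochberg adjustment over all genes tested and calls where the adjusted p was 0.05 or less. The fit was also run on simulated data with known changes. These were larger than any change of a member, and the simulated libraries had no deviations shared by replicate number. The simulation therefore does not test calls of changes as small as those of the members. Other steps used numpy 2.4.6, pandas 2.3.3 and matplotlib 3.10.9 under Python 3.11.15. Positions are from GENCODE M21 and start windows from RefSeq. Read numbers were inferred with GENCODE exon lengths from low values, of which at least 97.29% (muscle) and 98.79% (cells) were whole multiples of 1 read within 0.05, and cover counting error only.

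The members and gene lists were chosen with earlier results of these data known. Named are all 8 members, every reported gene of the complex list, up to 4 called genes with the largest change from each other list (day 3 against day 0, and DM3 against GM in control cells), the 3 genes most like Dmd and Utrn, and Mettl3, Xist and Y-linked genes as label checks. Libraries with the same replicate number deviated together in cells (6 correlations of deviations from group means, 0.278 to 0.68, all above 0.1). In muscle the 10 correlations were -0.019 to 0.211. Those above 0.1 were day 0 with day 10 (0.211) and day 5 with day 10 (0.117). The numbers therefore pair the cell libraries by this measure, and neither the labels nor the methods give a reason. In every cell group replicate 2 also had more ribosomal RNA-type reads, fewer reads on genes and lower long genes than replicate 1. The part of these differences in the pairing was not tested. The main fit of the cells did not use the pairing. Some listed genes are not reported here, and counts cover the others. Alternatives were pseudocounts of 1 and 0.01, quantile normalization, median-ratio scaling, a filter at 1 FPKM or none, the replicate block, a term for Xist-expressing libraries, a log2 change of at least 2 beside the adjusted p, only the groups compared, 0.1 FPKM added for the ratio, and each library left out (for Drp2 in cells chosen after seeing the data).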

Additional observations from a re-analysis of the deposited data

How the results depend on the processing

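Every library left out in turn gave counts of called members of 0 for day 1 against day 0, 4 to 5 for day 3, 0 to 1 for day 5 and 0 for day 10, each against day 0, 0 to 4 for day 3 against day 1, 0 to 2 for day 5 against day 3, 3 to 5 for day 10 against day 3 and 2 to 5 for any change. The change itself turned sign between these fits for 28 of the 91 changes of a member, none of them called, among them -0.12 to 0.33 for Dag1 on day 3 and -0.31 to 0.16 for Dmd on day 10, both against day 0, and -0.74 to 0.20 for Sgca in knockdown cells. In cells the counts were 0 to 3 for DM3 against GM in control cells, 0 to 1 for knockdown against control on DM3 and 0 for the other 3 comparisons. Requiring a log2 change of 2 as well left 0 members for day 3 and day 5 against day 0, day 3 against day 1, and days 5 and 10 against day 3. A term for Xist-expressing libraries left 0 members for day 5 against day 0, day 3 against day 1 and day 5 against day 3, and 2 for any change. Quantile normalization left 0 for day 5 against day 0. A fit of only the groups compared left 2 for day 3 against day 1. For DM3 against GM in control cells, no filter and only the groups compared left 0. For knockdown against control on DM3, 1 member was called with a pseudocount of 1, quantile normalization or the replicate block, and 4 with only the groups compared. The replicate block changed no other count of members by over 1.5 times. Median-ratio scaling shifted the median of all genes by 0.000 in every muscle comparison between days, so in muscle it was no separate check. With 0.1 FPKM added, the mean Dmd to Utrn ratio was 0.0185 in Ctrl-GM, 0.00951 in Ctrl-DM3, 0.013 in Cas9M3-GM, 0.0138 in Cas9M3-DM3 and 1.95 on day 0.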
